A study of Mus musculus with 12 samples.

Results

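The transcripts described here encode the steps that carry an adrenergic signal from the surface of a brown adipocyte to protein kinase A (PKA). They are 9 genes of the 48321 listed, taken by symbol: the β-adrenergic receptors Adrb1 and Adrb3, the stimulatory G protein gene Gnas, the adenylyl cyclases Adcy3 and Adcy6, the PKA catalytic subunits Prkaca and Prkacb, and the PKA regulatory subunits Prkar1a and Prkar2b. The cells were WT mouse brown preadipocytes immortalized with SV40 large T antigen and differentiated over 8 days, at first in medium with IBMX, rosiglitazone, dexamethasone, insulin and T3 and later in medium with insulin and T3 only. One line was stably transduced with the empty pLEX lentiviral vector (pLEX cells) and one with a truncated, soluble mimetic of Semaphorin 4B (tSema4B cells, which the labels call Sema4B transduced). Each line was left unstimulated or given 2 μM norepinephrine (NE) for 6 h, both in serum-free medium with BSA, and 3 libraries were sequenced for each of the 4 groups. The labels call the 3 libraries technical replicates and each construct is represented by a single line, so that every test below measures the spread between these libraries, and a difference between the lines cannot be told apart from a difference between independent transductions.

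In brown fat, NE released from sympathetic nerves binds β-adrenergic receptors, which act through the stimulatory G protein (Gs) on adenylyl cyclase. Cyclic AMP (cAMP) made by the cyclase binds the regulatory subunits of PKA and frees the catalytic subunits, which drive lipolysis and the transcription of thermogenic genes. β3, encoded by Adrb3, is the receptor most characteristic of mature fat cells, and RIIβ, encoded by Prkar2b, is the regulatory subunit for which adipose tissue is best known.

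Libraries held 2000780 to 5409583 reads counted on genes, and within each condition every pLEX library was deeper than every tSema4B library. Values are normalized counts, that is, reads divided by the size factor of their library. The transduced gene itself, Sema4b, lay between 258257.4 and 316850.1 normalized counts in unstimulated tSema4B libraries and between 110786.1 and 124007.7 in unstimulated pLEX libraries, and it was likewise the higher in tSema4B libraries after NE. The unstimulated empty-vector libraries thus also held far more Sema4b than Fabp4 (mean 24030 normalized counts). The pLEX libraries with NE held 65472.5 to 81753.8 of Sema4b against 34880 to 46020 of Fabp4. Where the Sema4b reads of the pLEX libraries come from was not tested. The 9 adipocyte markers examined, Adipoq, Cd36, Cebpa, Cidec, Fabp4, Lipe, Lpl, Plin1 and Pparg, were detected in every group. The sum of the 9 adipocyte markers was 40810 to 46710 normalized counts in unstimulated pLEX libraries and 6907 to 9681 in unstimulated tSema4B libraries. After NE the same sum was 54130 to 65760 and 10850 to 12240. With NE in pLEX cells, Fabp4 was called higher and Plin1 and Pparg lower (limma), beside 6.82% and 4.78% of all tested genes. The median log2 fold change of the 9 markers with NE was -0.0131 there. In tSema4B cells Cidec, Fabp4 and Lpl were called higher with NE, beside 3.68% of all tested genes, and none lower. Of 8 markers of brown adipocytes, Dio2 was at 0 reads in all 12 libraries, 5 were tested, and Cidea, Elovl3 and Ucp1 were called lower in tSema4B cells in both conditions (limma), beside 7.39% of all tested genes without NE and 11.2% after it. The other 2 tested, Ppargc1a and Prdm16, were not called. Mean Ppargc1a was the higher in tSema4B cells, at 32.79 against 20.8 without NE and 18.35 against 13.47 after it. Mean Prdm16 was the lower there, at 10.66 against 27.85 and 17.58 against 20.99. The 8 brown adipocyte markers summed to 135.4 to 197.6 normalized counts in unstimulated pLEX libraries and 38.14 to 64.35 in unstimulated tSema4B libraries, and to 442.6 to 481.1 and 118.9 to 146.9 after NE. The summed markers of preadipocytes and fibroblasts ran the other way, at 9094 to 9553 against 16150 to 18490 before NE and 7054 to 7940 against 13910 to 14870 after it. The defining markers of macrophages (Ptprc, Adgre1), endothelium (Kdr) and nerve or Schwann cells (Th, Sox10) were at 0, and the whole lists summed to at most 24.62 normalized counts per library for 6 macrophage markers, 21.9 for 5 endothelial and 98.57 for 6 nerve and Schwann cell markers. In each of these 3 lists 1 gene was tested. Csf1r rose with NE, from 1.37 ± 0.708 to 11.5 ± 2.50 normalized counts in pLEX cells and from 1.31 ± 1.37 to 15.8 ± 5.42 in tSema4B cells (limma adjusted p = 0.0289 and 0.0119). Tubb3 was higher in unstimulated tSema4B cells, at 75.5 ± 10.4 against 28.1 ± 3.56 (limma adjusted p = 0.00159), and Pecam1, at 4.34 to 17.2 in all 12 libraries, was not called. Markers of smooth muscle and pericytes summed to 771 to 1174 and 1099 to 1200 in unstimulated pLEX and tSema4B libraries and to 596.7 to 797.5 and 513.2 to 836.4 with NE. Of these, Acta2 fell with NE in both lines (limma adjusted p = 0.0362 and 0.00785). Of 8 tested preadipocyte and fibroblast markers, Cd34, Col1a1, Dlk1 and Pdgfrb fell and Ly6a rose with NE in both lines (limma). Over all tested genes, 4.78% fell and 6.82% rose in pLEX cells, and 2.58% and 3.68% in tSema4B cells. The part of these marker changes in the NE comparisons below was not tested. In RNA from a whole culture, fewer cells of a type and less RNA per cell cannot be told apart, and the part that the mixture of differentiated and undifferentiated cells plays in the line differences below was not tested.

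The 9 transcripts differed widely in level. Dividing normalized counts by exon length, so that genes can be set side by side, placed Prkar1a first at 381.5 normalized counts per kb (mean of 12 libraries). Prkacb (62.65 per kb), Prkaca (50.85) and Prkar2b (49.81) followed at similar levels, and their ranges over libraries overlapped. Adrb3 (17.36), Adcy3 (15.21) and Adcy6 (10.43) formed the next tier. Gnas (2.85) and Adrb1 (0.802) were the lowest, the level and rank of Gnas being uncertain for a reason given below. These means pool lines that differ in Adrb3. The order of these means over 12 libraries was the same when the longest transcript replaced the union of exons as the length, although the Prkacb level rose to 126.4 per kb. Within pLEX cells the order depended on the length used. By the union of exons Prkar2b came second there, at 55.14 per kb unstimulated and 69.97 with NE, against 54.89 and 52.64 for Prkaca and 54.57 and 50.63 for Prkacb. By the longest transcript Prkacb came second, at 110.1 and 102.2, against 59.62 and 75.64 for Prkar2b. Adrb3 was at 38.24 per kb in unstimulated pLEX cells and 4.33 per kb in unstimulated tSema4B cells, where it lay below Adcy3 (21.08) and Adcy6 (11.39). With NE it was at 2.66 per kb in tSema4B cells, below Gnas at 3.03, and by the longest transcript it lay below Gnas in tSema4B cells in both conditions.

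**Figure D1:**
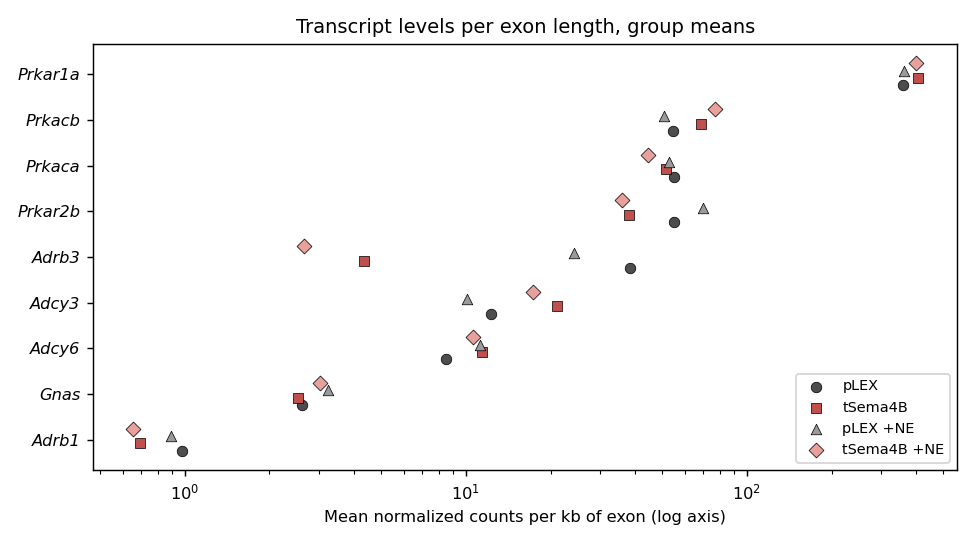
Mean normalized counts per kb of exon (log axis) of the 9 transcripts, with one symbol for each of the 4 groups (3 libraries each). Symbols of a gene lie close together for most genes, whereas those of Adrb3 split by line, from 38.24 and 24.2 per kb in pLEX cells to 4.33 and 2.66 in tSema4B cells.

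tSema4B cells were first compared with pLEX cells without stimulation. Of the 8 transcripts abundant enough to test (at least 10 normalized counts in 3 or more libraries), Adcy3 and Prkacb were higher in tSema4B cells, Adrb3 was lower, and the other 5 did not pass the test (limma, Benjamini-Hochberg adjusted p at most 0.05 over all 11998 genes tested). Over all tested genes, 5.64% were called higher and 7.39% lower in this comparison. After NE, Adcy3 and Prkacb were again higher and Adrb3 and Prkar2b were lower, where 9.79% of all tested genes were called higher and 11.2% lower. The comparisons of the lines before and after NE use separate libraries. Adrb3 was the only one of the 8 whose called difference exceeded a factor of 2, in both comparisons. The median log2 fold change over the 8 was 0.075 unstimulated and -0.045 after NE, beside -0.0025 and -0.0103 over all tested genes.

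Libraries of the lines did not overlap for Adrb3, Adcy3, Prkacb and Prkar2b without stimulation, where 29.4% of all tested genes did not overlap either. After NE, Prkar1a joined these 4, beside 37.7% of all tested genes.

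**Figure D2:**
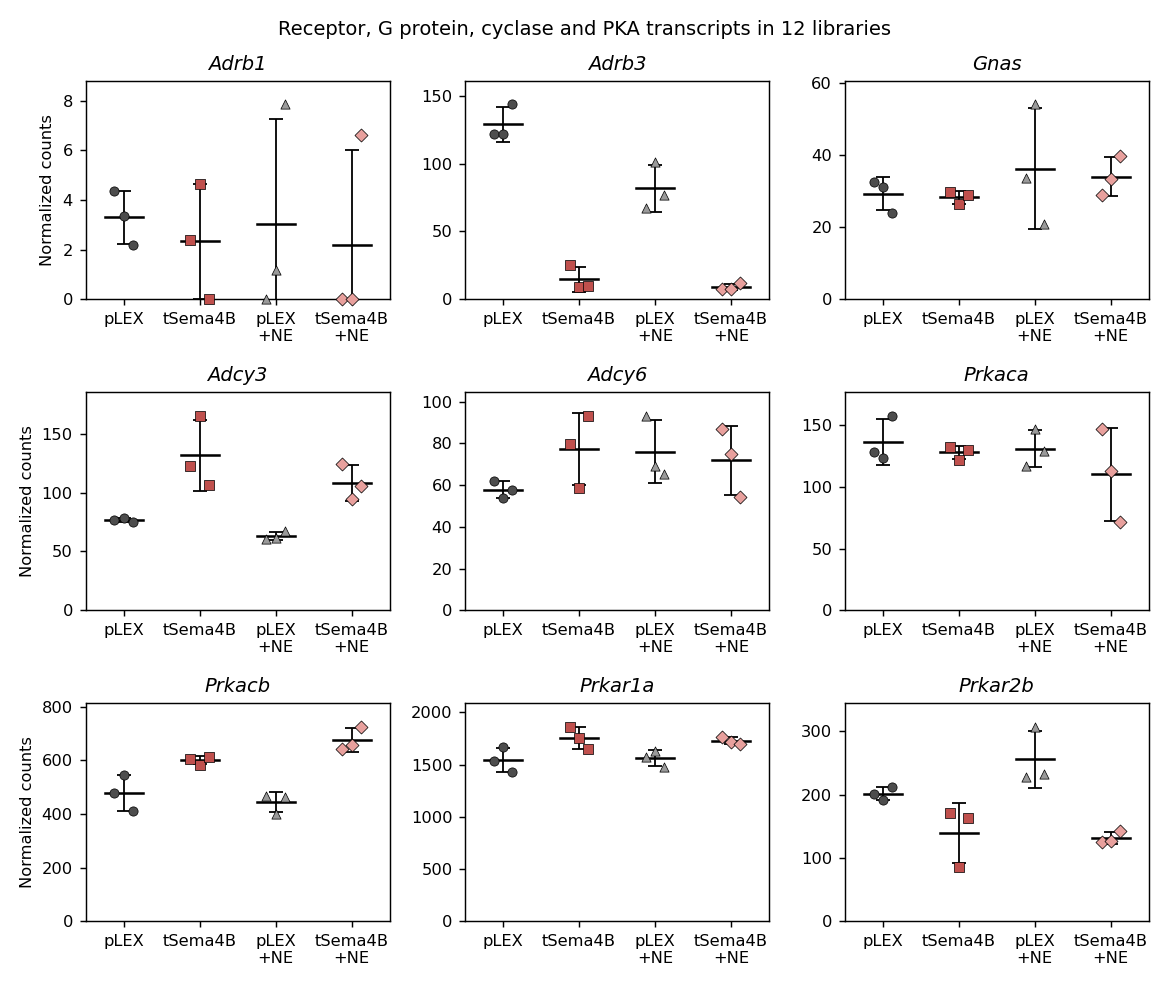
Normalized counts (linear axes from 0) of the 9 transcripts in the 12 libraries, by group: pLEX or tSema4B cells, unstimulated or with NE. Points are libraries, horizontal bars are means and vertical bars are SD (n = 3, cut at 0 for Adrb1). Adrb3 stays at or under 25.03 in all tSema4B libraries and at or above 67.2 in all pLEX libraries.

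Adrb3, the β3 receptor gene (ENSMUSG00000031489.15, chromosome 8 from 27225776 to 27250616 on the minus strand, GRCm38), showed the largest difference of the 8. The 3 unstimulated pLEX libraries held 121.6, 121.9 and 143.8 normalized counts, and the 3 tSema4B libraries held 25.03, 9.28 and 9.58. After NE the values were 67.2, 101.4 and 76.6 in pLEX cells and 7.51, 7.58 and 11.9 in tSema4B cells. Every tSema4B library thus lay far below every pLEX library, and tSema4B replicate 1 without NE stood above its 2 companions. The log2 fold change was -3.20 ± 0.359 (SE, n = 3 per group, limma adjusted p = 1.19e-06) without NE and -3.06 ± 0.359 (limma adjusted p = 2.30e-06) after NE. On this scale, log2(value + 1), these are 9.17-fold and 8.32-fold lower levels. The tSema4B values rest on few reads, 6 to 21 per library without NE and 7 to 9 with it. Without tSema4B replicate 1, the unstimulated difference was -3.64. A gene on the opposite strand, Gm45470, covers 24.85% of the exon bases of Adrb3. It is not among the genes listed in these data, so its level is not known.

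The fall of Adrb3 was set beside that of the adipocyte markers, since those moved in the same direction. The log2 ratio of Adrb3 to the summed adipocyte markers was -8.43 ± 0.244 (SD, n = 3) in unstimulated pLEX cells and -9.32 ± 0.790 in unstimulated tSema4B cells, a difference of -0.891 whose groups overlapped (exact permutation test, two-sided p = 0.3). After NE the ratio was -9.55 ± 0.179 and -10.39 ± 0.480, a difference of -0.839 without overlap (two-sided exact permutation p = 0.1, below which no test of 3 against 3 libraries can go). Relative to Adipoq alone, which encodes adiponectin, the difference was -0.809 without NE, with overlap (exact permutation test, two-sided p = 0.3). After NE it was -0.908, without overlap (two-sided exact permutation p = 0.1). The unstimulated tSema4B ratios to Adipoq ran from -5.627 to -4.104, replicate 1 being the highest, so that the first difference depends on that library. Fabp4 makes up most of this marker sum, 24030 of a mean of 44480 in unstimulated pLEX cells. The median log2 fold change of the 9 markers between the lines was -2.49 without NE and -1.93 after it. Relative to these markers Adrb3 was thus lower in value in tSema4B cells in both conditions, and without NE this was within the spread between libraries. That overlap rests on tSema4B replicate 1. The unstimulated ratios to the marker sum ran from -9.98 to -8.446 in tSema4B cells, replicate 1 being the highest, and from -8.582 to -8.149 in pLEX cells.

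**Figure D3:**
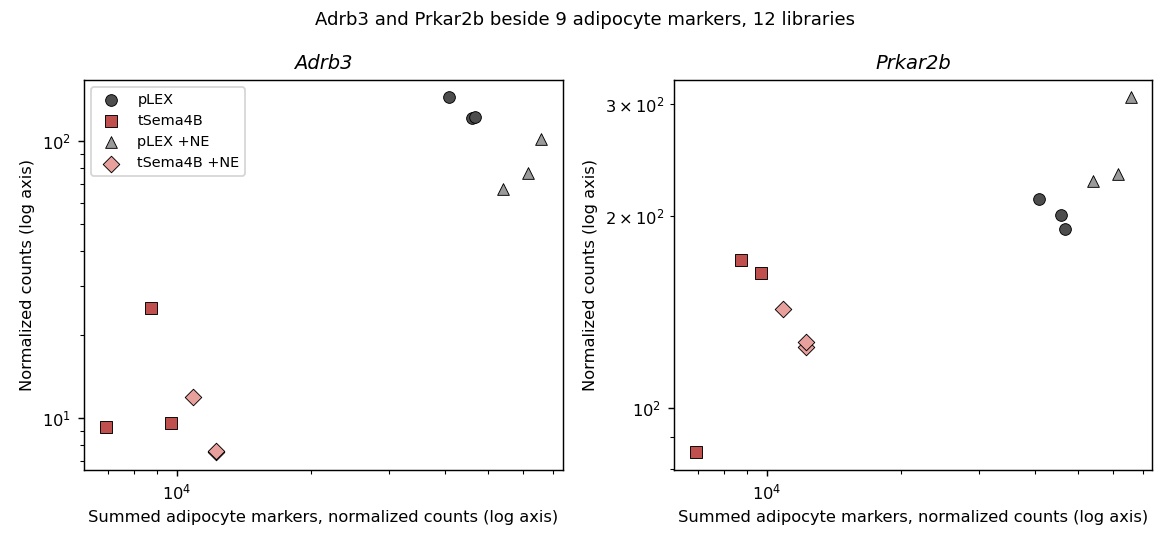
Normalized counts of Adrb3 (left) and Prkar2b (right) against the summed normalized counts of 9 adipocyte markers in the 12 libraries (log axes), with one symbol per group. The tSema4B libraries sit at 6907 to 12240 on the marker axis and the pLEX libraries at 40810 to 65760, and Adrb3 is at or under 25.03 in the former and at or above 67.2 in the latter.

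With NE, Adrb3 in pLEX cells was 81.7 ± 17.6 against 129.1 ± 12.7 normalized counts (SD, n = 3), without overlap. Its log2 fold change of -0.67 ± 0.359 did not pass the test over all genes (limma adjusted p = 0.268). A model of only the 6 libraries compared gave an adjusted p of 0.0168 for the same difference, so the call rests on which libraries estimate the spread. In tSema4B cells the Adrb3 libraries with and without NE overlapped, and the difference was not detectable at 6 to 21 reads per library.

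Adrb1, the β1 receptor gene, was too low to test. It had 2 to 4 reads per library in unstimulated pLEX cells, 0 to 3 in unstimulated tSema4B cells, 0 to 12 in pLEX cells with NE and 0 to 5 in tSema4B cells with NE. No order between groups can be read from such counts. The α-receptor genes were at or near 0, with Adra1a, Adra2a, Adra2b and Adra2c at 0 reads in all libraries.

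Gnas encodes the α subunit of Gs (ENSMUSG00000027523.19, chromosome 2 from 174284320 to 174346744 on the plus strand). It was counted at 24.0 to 32.6 normalized counts in unstimulated pLEX libraries, 26.3 to 29.8 in unstimulated tSema4B libraries, 21.0 to 53.9 in pLEX libraries with NE and 28.9 to 39.6 in tSema4B libraries with NE. All groups overlapped, and none of the comparisons passed the test. The 95% interval of the unstimulated line difference ran from -0.752 to 0.681 on the log2 scale, so that changes of up to about that size could not be seen. The level of Gnas is uncertain for another reason. The opposite-strand genes Nespas and Gm20721 cover 22.0% of its exon sequence, and the libraries carry no strand information. How the counting treated such bases is not given in the sources used here, so reads there may have been left out. Gm20721 itself was at 0 in all 12 libraries and Nespas at no more than 8.06 normalized counts in any. Gnal, the other gene of the Gs family, was lower still, between 2.96 and 19.6 normalized counts, and did not pass the test in any comparison.

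Adcy3, an adenylyl cyclase gene (ENSMUSG00000020654.15, chromosome 12 from 4133103 to 4213525 on the plus strand), was higher in tSema4B cells. The unstimulated pLEX libraries held 77.1, 78.2 and 75.2 normalized counts and the tSema4B libraries 122.8, 165.5 and 106.8. After NE the values were 60.5, 61.6 and 67.4 against 124.4, 94.7 and 105.7. All tSema4B libraries lay above all pLEX libraries in both conditions. The log2 fold change was 0.75 ± 0.203 (SE, limma adjusted p = 0.0158) without NE and 0.76 ± 0.203 (limma adjusted p = 0.00967) after NE, or 1.68-fold and 1.69-fold. The unstimulated call ended when tSema4B replicate 2 was left out, at a log2 fold change of 0.57 and an adjusted p of 0.0981.

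The exons of Adcy3 share 1380 bases, 22.1% of the total, with Cenpo on the opposite strand. Cenpo, a centromere protein gene, had a mean of 69.9 normalized counts in unstimulated pLEX cells and 64.8 in unstimulated tSema4B cells, and of 49.1 and 57.1 after NE, with single libraries between 34.3 and 80.4. The part of such shared bases in the Adcy3 difference was not tested. The Adcy3 difference also stood beside that of the preadipocyte and fibroblast markers, and the log2 ratio of Adcy3 to their sum differed between lines by -0.106 without NE and -0.188 with it. Both pairs of groups overlapped (exact permutation tests, two-sided p = 0.6 and p = 0.2). Col1a1 makes up most of that sum, 5737 of a mean of 9355 in unstimulated pLEX cells and 11720 of 17000 in unstimulated tSema4B cells. The median log2 fold change of the 8 tested markers was 0.54 without NE and 0.83 after it, so that Adcy3 lay above the median without NE and below it after NE.

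Adcy6, a cyclase that calcium inhibits (ENSMUSG00000022994.9, chromosome 15 from 98589973 to 98610076 on the minus strand), did not pass the test in any comparison. Its libraries lay between 53.8 and 61.9 normalized counts in unstimulated pLEX cells and between 58.8 and 93.1 in unstimulated tSema4B cells. With NE they lay between 65.5 and 93.4 in pLEX cells and between 54.2 and 86.9 in tSema4B cells. The pLEX libraries with and without NE did not overlap, and all other neighbouring groups did.

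Of the 10 cyclase genes, only Adcy3, Adcy6, Adcy7 and Adcy9 were tested, and Adcy3 was the one called, beside 5.64% of all tested genes higher in tSema4B cells without NE and 9.79% after it. Adcy7 lay at 58.3 ± 9.54 normalized counts in unstimulated pLEX cells and 88.6 ± 14.1 in unstimulated tSema4B cells, and at 28.4 ± 14.6 and 59.0 ± 30.1 after NE. Without NE the Adcy7 libraries of the lines did not overlap, as for 29.4% of all tested genes, though the difference was not called. The lines overlapped after NE (limma adjusted p = 0.0550). In pLEX cells the Adcy7 libraries with and without NE did not overlap (log2 fold change -1.12, limma adjusted p = 0.0521). Adcy3 held 34.7% ± 2.30 of the summed cyclase level per kb in unstimulated pLEX cells and 43.1% ± 8.26 in tSema4B cells. After NE its share was 33.8% ± 2.41 and 43.6% ± 1.11. The summed level per kb was 35.6 ± 1.76 and 48.7 ± 1.87 without NE, and 30.0 ± 0.785 and 39.7 ± 4.80 with it, so the tSema4B libraries held more cyclase transcript per kb in both conditions. The log2 ratio of Adrb3 to Adcy3 differed between the lines by -4.05 without NE and -3.97 with it, without overlap (exact permutation tests, two-sided p = 0.1 each). Each gene alone already separated the lines, in opposite directions, so this lack of overlap was fixed beforehand and adds no evidence.

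Prkacb, which encodes the PKA catalytic subunit Cβ (ENSMUSG00000005034.15, chromosome 3 from 146729574 to 146812990 on the minus strand), was at 480.0, 546.5 and 409.5 normalized counts in unstimulated pLEX libraries and at 606.6, 583.2 and 610.6 in tSema4B libraries. After NE it was at 468.3, 401.3 and 462.9 against 642.3, 658.0 and 725.4. The tSema4B libraries were the higher throughout. The difference was 0.34 ± 0.111 on the log2 scale without NE (SE, limma adjusted p = 0.0498) and 0.60 ± 0.111 after NE (limma adjusted p = 4.58e-04), or 1.26-fold and 1.52-fold. The unstimulated call is marginal. It was lost with edgeR (adjusted p = 0.0673) and when any of 5 of the 6 libraries was left out, pLEX replicate 2 being the exception, with adjusted p between 0.0743 and 0.235. The log2 ratio of Prkacb to the summed preadipocyte and fibroblast markers differed between tSema4B and pLEX cells by -0.524 without NE and -0.351 with it, without overlap (exact permutation tests, two-sided p = 0.1 each). The line difference before and after NE did not itself differ by the test of the interaction (log2 0.27 ± 0.157, limma adjusted p = 0.595).

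Prkaca, which encodes Cα (ENSMUSG00000005469.10, chromosome 8 from 83972993 to 83996443 on the plus strand), did not pass the test in any comparison. It lay at 136.6 ± 18.6 and 128.2 ± 5.3 normalized counts in unstimulated pLEX and tSema4B cells (SD, n = 3), and at 131.0 ± 15.1 and 110.3 ± 37.8 after NE. The tSema4B libraries with NE spread from 71.4 to 146.9. Cβ transcript made 49.8% ± 6.79 of the catalytic level per kb in unstimulated pLEX cells and 57.1% ± 0.491 in tSema4B cells, and 49.1% ± 4.92 and 64.0% ± 9.55 after NE. These shares use the union of exons. By the longest transcript Prkacb was well above Prkaca, at 110.1 against 60.0 per kb in unstimulated pLEX cells and 138.1 against 56.32 in unstimulated tSema4B cells. The log2 ratio of Prkacb to Prkaca per kb was higher in tSema4B cells by 0.419 and 0.909, without overlap (exact permutation tests, two-sided p = 0.1 each). With NE the tSema4B ratios spread from 0.31 to 1.528. The highest was replicate 3, where Prkaca was lowest, so the size of the difference after NE depends on that library.

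The PKA regulatory subunits lay in opposite directions in value, and of the members only Prkar2b passed the test, after NE. Prkar2b, which encodes RIIβ (ENSMUSG00000002997.15, chromosome 12 from 31958476 to 32061296 on the minus strand), was at 200.9, 190.9 and 212.4 normalized counts in unstimulated pLEX libraries and at 170.4, 85.1 and 162.9 in tSema4B libraries. After NE it was at 227.1, 307.0 and 232.4 against 124.4, 126.9 and 142.7. All tSema4B libraries lay below all pLEX libraries, and tSema4B replicate 2 without NE stood well below its companions. After NE the log2 fold change was -0.94 ± 0.205 (SE, limma adjusted p = 0.00203), a 1.92-fold lower level. Without NE it was -0.59 ± 0.205 and missed the threshold (limma adjusted p = 0.0603). That value depended on single libraries, for it was -0.27 without tSema4B replicate 2, and it passed at -0.77 (adjusted p = 0.0255) without tSema4B replicate 1 and at -0.74 (adjusted p = 0.0341) without tSema4B replicate 3.

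Prkar1a, which encodes RIα (ENSMUSG00000020612.16, chromosome 11 from 109649405 to 109669656 on the plus strand), was the most abundant and the steadiest of the 9. It was at 1539, 1666 and 1433 normalized counts in unstimulated pLEX libraries, at 1863, 1759 and 1650 in unstimulated tSema4B libraries, at 1576, 1631 and 1480 in pLEX libraries with NE and at 1768, 1717 and 1701 in tSema4B libraries with NE. The line difference was 0.19 ± 0.0789 on the log2 scale without NE (SE, limma adjusted p = 0.132), where the groups overlapped slightly, and 0.15 ± 0.0789 after NE (limma adjusted p = 0.204), where they did not overlap. Rescaling the libraries to equal totals made the difference after NE 0.24 and brought it past the threshold (adjusted p = 0.0356).

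Among the 4 regulatory genes, Prkar1a supplied 82.7% ± 0.851 of the level per kb in unstimulated pLEX cells and 86.9% ± 1.76 in tSema4B cells, and Prkar2b 12.8% ± 1.52 and 8.14% ± 2.66. After NE the shares were 79.7% ± 1.39 and 88.0% ± 0.883 for Prkar1a, and 15.4% ± 1.88 and 7.91% ± 0.663 for Prkar2b. The log2 ratio of Prkar2b to Prkar1a was lower in tSema4B cells by 0.781 without NE and by 1.10 with it, without overlap (exact permutation tests, two-sided p = 0.1 each). With NE each of the 2 genes alone already separated the lines, in opposite directions, so the lack of overlap there was fixed beforehand. The sizes without NE depend on tSema4B replicate 2. It had the lowest unstimulated tSema4B ratio, in a range of -4.127 to -3.097, and the lowest Prkar2b share, in a range of 5.084% to 9.985%. The sum of the 4 regulatory transcripts overlapped between the lines, at 432.3 ± 28.8 and 468.2 ± 27.9 normalized counts per kb without NE and 453.8 ± 26.1 and 454.6 ± 8.40 with it. The log2 ratio of Prkar2b to the summed adipocyte markers was higher in tSema4B cells by 1.81 without NE and 1.41 with it, without overlap (exact permutation tests, two-sided p = 0.1 each).

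**Figure D4:**
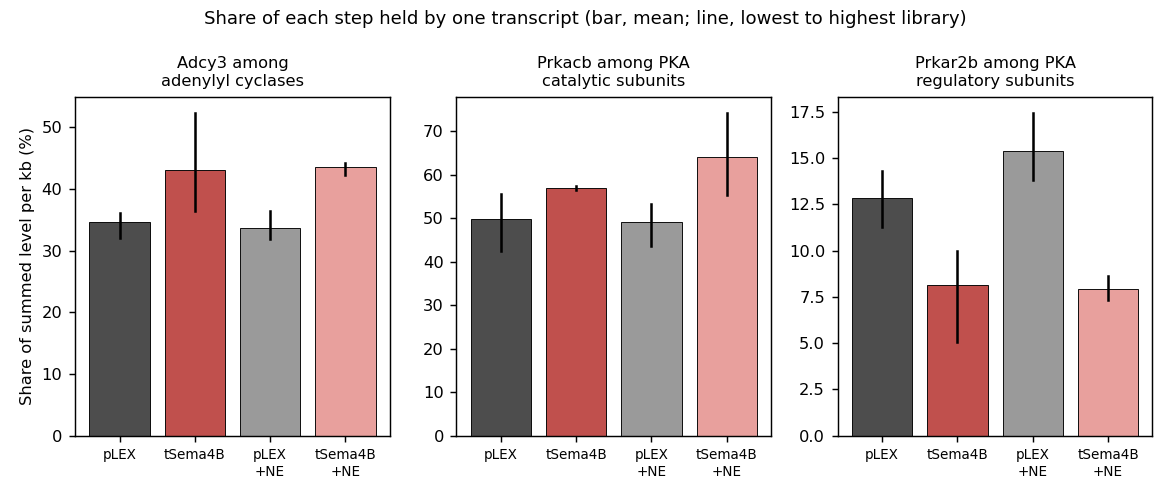
Share, in percent of the summed level per kb, that Adcy3 holds among adenylyl cyclases, Prkacb among PKA catalytic subunits and Prkar2b among PKA regulatory subunits, by group. Bars are means of 3 libraries and vertical lines run from the lowest to the highest library; without NE the Prkar2b share is 12.8% in pLEX and 8.14% in tSema4B cells.

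Prkar2a, the other RII gene and no member of the set, was lower in tSema4B cells after NE at 62.5 ± 3.45 against 100.4 ± 4.97 normalized counts (log2 fold change -0.68, limma adjusted p = 0.0322). It rose with NE in pLEX cells from 59.5 ± 3.52 (log2 fold change 0.75, limma adjusted p = 0.0297). Both calls were lost on leaving out single libraries, with adjusted p up to 0.198 and 0.124 over the alternatives. Prkar1b did not pass the test in any comparison.

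NE was then compared with no stimulation within each line. None of the 8 transcripts was called in pLEX cells, where NE raised 6.82% and lowered 4.78% of all tested genes, and none in tSema4B cells, where it raised 3.68% and lowered 2.58%. The lowest adjusted p among the 8 was 0.268 and 0.436 (limma), and none of the 8 had an unadjusted p below 0.05; edgeR and DESeq2 called none either. Groups with and without NE did not overlap for Adrb3, Adcy3, Adcy6 and Prkar2b in pLEX cells, where 33.3% of all tested genes did not overlap, and for Prkacb in tSema4B cells, where 20.7% did not. The test of whether the NE response differed between the lines called none of the 8 (lowest limma adjusted p = 0.595, and 0 with an unadjusted p below 0.05). Over all tested genes this test called 0.025% with a more positive and 0.0% with a more negative log2 fold change with NE in tSema4B than in pLEX cells.

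**Figure D5:**
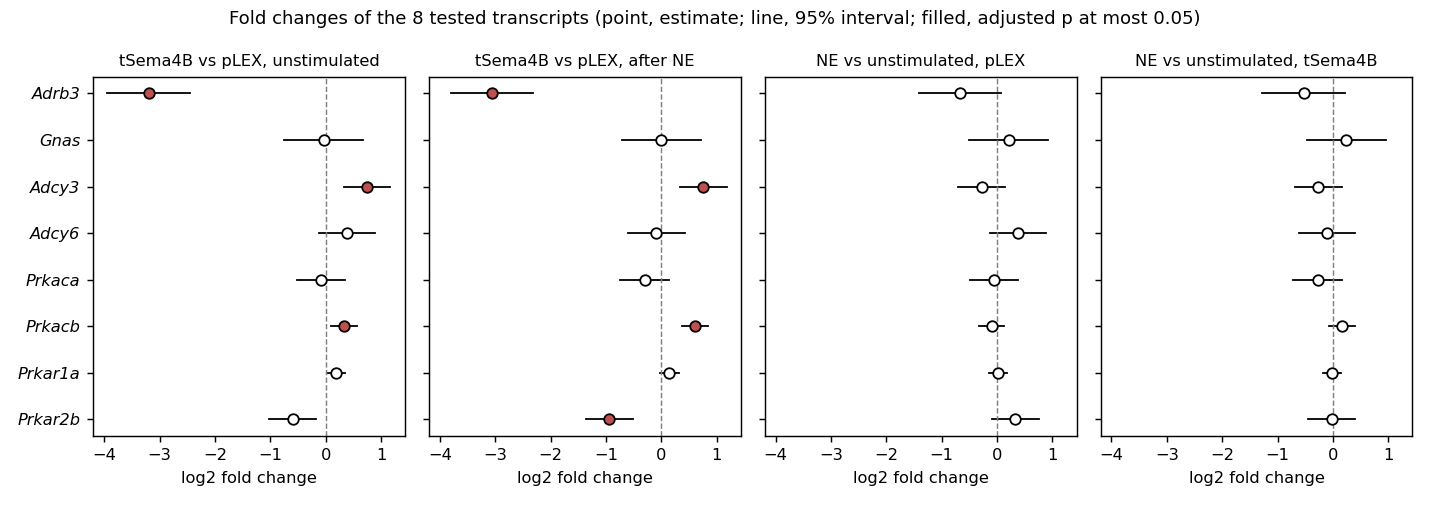
log2 fold changes of the 8 tested transcripts in the 4 comparisons. Points are estimates, lines are 95% intervals from limma, filled points passed an adjusted p of 0.05, and the dashed line marks no difference. Filled points appear only in the comparisons of tSema4B with pLEX cells, 3 without NE and 4 after NE, and Adrb3 lies farthest from 0 at -3.20 and -3.06.

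Of 14 genes known to be induced by cAMP, 11 were tested. With NE, 4 of them (Junb, Nr4a1, Rgs2 and Ucp1) rose in pLEX cells, beside 6.82% of all tested genes, and the other 7 did not pass the test. In tSema4B cells 3 of them (Junb, Rgs2 and Ucp1) rose, beside 3.68%, and the other 8 did not pass. Between the lines after NE, Junb, Nr4a1, Rgs2 and Ucp1 were lower in tSema4B cells, beside 11.2% of all tested genes. Ucp1, the uncoupling protein of brown fat, was then at 62.9 ± 3.10 against 276.2 ± 14.5 normalized counts (log2 fold change -2.12, limma adjusted p = 1.89e-04). Nr4a1, an immediate-early nuclear receptor gene, was at 28.8 ± 11.9 against 84.4 ± 5.81 (log2 fold change -1.60, limma adjusted p = 0.00303). Without NE, Per1, Rgs2 and Ucp1 were lower in tSema4B cells, beside 7.39%, Ucp1 being at 0 reads in all 3 libraries, and Sik1 was higher, beside 5.64%. The line calls of Junb, Per1 and Sik1 were lost under some alternatives (limma adjusted p up to 0.238, 0.0840 and 0.0883). The interaction called none of the 11. Crem, which encodes a cAMP-responsive transcription factor, rose from 70.8 ± 0.944 to 230.6 ± 15.9 normalized counts in pLEX cells (log2 fold change 1.69, limma adjusted p = 6.62e-06) and from 62.8 ± 19.2 to 162.6 ± 15.7 in tSema4B cells (log2 fold change 1.402, limma adjusted p = 1.20e-04). Crem was the only gene called with NE among 8 tested of the CREB family and its coactivators, beside 6.82% of all tested genes higher in pLEX and 3.68% in tSema4B cells. Between the lines only Crtc1, a CREB coactivator gene, was called. Without NE it was higher in tSema4B cells, at 194.5 ± 20.7 against 119.4 ± 37.4 normalized counts (log2 fold change 0.74, limma adjusted p = 0.0130), beside 5.64% of all tested genes, and the call was lost without pLEX replicate 1 or tSema4B replicate 2 (adjusted p up to 0.108).

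Of 3 PKA inhibitor genes, 2 were tested. Of these, 1 was called higher in tSema4B cells after NE, beside 9.79% of all tested genes, and 1 rose with NE in pLEX cells, beside 6.82%. Pkia was higher in tSema4B cells after NE at 142.1 ± 7.44 against 62.4 ± 14.9 normalized counts (log2 fold change 1.20, limma adjusted p = 0.00893), and the call was lost without pLEX replicate 1 (adjusted p = 0.0537). Pkig rose with NE in pLEX cells from 66.9 ± 1.42 to 133.5 ± 9.22 (log2 fold change 0.98, limma adjusted p = 0.0130), a call lost without pLEX replicate 3 of the NE group (adjusted p = 0.0656). Of 11 tested A-kinase anchoring proteins, which tether PKA, only Akap1 and Akap12 were called. Between the lines 1 was higher and 1 lower in each condition, beside 5.64% higher and 7.39% lower of all tested genes without NE and 9.79% and 11.2% after it, and 1 fell with NE in each line, beside 4.78% in pLEX and 2.58% in tSema4B cells. Akap1, which anchors PKA at the outer mitochondrial membrane, was at 188.6 ± 38.3 and 76.7 ± 7.56 normalized counts in unstimulated pLEX and tSema4B cells and at 179.1 ± 32.8 and 76.2 ± 11.0 after NE. It was lower in tSema4B cells by 1.27 and 1.22 on the log2 scale (limma adjusted p = 8.01e-05 and 1.11e-04), under every alternative tried. Akap12, a scaffold for PKA at the plasma membrane, was higher in tSema4B cells by 0.45 in both conditions (limma adjusted p = 0.0159 and 0.0105) and fell with NE by 0.60 in both lines (limma adjusted p = 0.00217 and 0.00338). Of these 4 calls, the unstimulated one was lost on leaving out single libraries (adjusted p up to 0.0819).

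Of 11 tested phosphodiesterases, which break down cAMP, Pde4b and Pde4d rose with NE in pLEX cells, beside 6.82% of all tested genes, and Pde1a rose in tSema4B cells, beside 3.68%. Pde4d went from 44.9 ± 9.78 to 157.0 ± 3.69 normalized counts in pLEX cells (log2 fold change 1.81, limma adjusted p = 4.23e-04). Pde4b went from 82.3 ± 11.1 to 191.4 ± 11.1 there (log2 fold change 1.22, limma adjusted p = 5.19e-04). Pde1a went from 80.7 ± 17.9 to 216.4 ± 29.2 in tSema4B cells (log2 fold change 1.42, limma adjusted p = 3.38e-05). In the other line the means of all 3 were also higher with NE, though not called. Pde1a went from 143.2 ± 28.9 to 208.0 ± 11.1 in pLEX cells, without overlap. In tSema4B cells Pde4d went from 45.3 ± 19.9 to 81.7 ± 24.2 and Pde4b from 117.0 ± 41.2 to 164.4 ± 30.3. The interaction called none of the 11. Between the lines, Pde1a was lower in tSema4B cells without NE, where 7.39% of all tested genes were, and Pde2a, Pde3a, Pde3b and Pde4d were lower after NE, where 11.2% were, these last 4 calls being lost on leaving out single libraries (adjusted p up to 0.167). Pde3a had 0 reads in all 3 tSema4B libraries with NE and 3 to 32 reads in the pLEX libraries with NE.

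Among 10 tested genes of the G protein β and γ subunits, Gng11 was higher in tSema4B cells by 0.84 without NE and 0.78 after NE on the log2 scale (limma adjusted p = 4.34e-04 and 7.08e-04). Gng7 was higher after NE at 36.0 ± 6.91 against 8.06 ± 1.24 normalized counts (log2 fold change 2.02, limma adjusted p = 7.01e-04). Gng12 was lower in tSema4B cells without NE, and Gnb1 and Gnb4 were higher after NE, 3 calls that were lost under some alternatives (adjusted p up to 0.154). Of the 10, 1 was thus higher and 1 lower without NE, beside 5.64% and 7.39% of all tested genes, and 4 were higher after NE, beside 9.79%. Gng12 rose with NE in tSema4B cells, beside 3.68% (log2 fold change 0.35, limma adjusted p = 0.0372), a call lost under 11 of 18 alternatives. Of 3 tested genes listed under the inhibitory G proteins, Gnao1 was higher in tSema4B cells after NE, beside 9.79% of all tested genes (log2 fold change 0.94, limma adjusted p = 0.0388), and Gnai2 fell with NE in tSema4B cells, beside 2.58% (log2 fold change -0.64, limma adjusted p = 0.0343). Both calls were lost under several alternatives. None of 6 tested receptor kinases and arrestins, which switch β-receptors off, and none of 4 other cAMP effectors was called in any comparison (limma).

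The genes whose pattern over the 12 libraries was most like that of each transcript were looked up as a description, with Pearson's r of log2(value + 1) over all tested genes. Points share their line, treatment and depth, and how far r follows the split of the lines was not tested. For Adrb3 they were Bok (r = 0.973), Mgst3 (0.972) and Idh3g (0.971), all higher in pLEX cells. For Adcy3 they were Mmp2 (0.967), Lamp1 (0.959) and Nisch (0.958). For Prkacb they were Lgalsl (0.957), Adamts2 (0.943) and Pknox1 (0.942), and for Prkar1a Sec22b (0.918), Myo7a (0.906) and Urgcp (0.896), all with higher means in tSema4B cells. For Prkar2b they were Nme2 (0.945), Prdx1 (0.940) and Lsm4 (0.939). The best matches of Adcy6 (Orc3, 0.909, then Mepce and Gm6368), Prkaca (Oscp1, 0.899, then Klf4 and Epc2) and Gnas (Gtf2h1, 0.756, then Cd2ap and Usf3) were weaker. By Spearman's rho the 3 matches of Prkaca were only at 0.7133, 0.5035 and 0.5455. Ranking by rho put another gene first for every tested member except Adcy6. Among the members themselves, Adrb3 and Prkar2b varied together (r = 0.817) and both ran opposite to Prkacb (-0.854 and -0.770) and to Adcy3 (-0.796 and -0.907). Gnas had an r between -0.269 and 0.281 with every other member.

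Promoter sequences are shown for the members that differed between the lines and have an entry in the RefSeq promoter table (build GRCm38.p6), and for Prkar1a because a cAMP response element (CRE) lies in one of its promoters. Each runs 5′ to 3′ on the strand of the gene, from 250 bases before the transcription start to 50 after it. Capitals mark the CRE TGACGTCA, its core TGACG on either strand and the GC box GGGCGG. The core also lies inside the full CRE, and on the reverse strand the core reads CGTCA and the box reads as CCGCCC. Of the 9 members 7 have an entry; Adrb3 and Adcy6 have none. Adcy3 is shown at chr12:4133147-4133446 on the plus strand, Prkacb at chr3:146812897-146813196 on the minus strand, Prkar2b at chr12:32061228-32061527 on the minus strand and Prkar1a at chr11:109650699-109650998 on the plus strand.
Adcy3: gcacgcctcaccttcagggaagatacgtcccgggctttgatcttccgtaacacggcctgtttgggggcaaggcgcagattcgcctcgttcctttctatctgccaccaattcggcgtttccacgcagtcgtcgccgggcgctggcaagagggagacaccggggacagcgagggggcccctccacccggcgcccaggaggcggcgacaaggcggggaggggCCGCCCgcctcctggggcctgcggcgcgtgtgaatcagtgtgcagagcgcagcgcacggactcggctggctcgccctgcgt
Prkacb: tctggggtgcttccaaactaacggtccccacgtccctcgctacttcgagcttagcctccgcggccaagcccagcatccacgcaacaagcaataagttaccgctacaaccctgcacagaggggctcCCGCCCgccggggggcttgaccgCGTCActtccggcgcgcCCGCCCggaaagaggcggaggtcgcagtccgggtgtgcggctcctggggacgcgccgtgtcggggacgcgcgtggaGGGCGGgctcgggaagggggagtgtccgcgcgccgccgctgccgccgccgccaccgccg
Prkar2b: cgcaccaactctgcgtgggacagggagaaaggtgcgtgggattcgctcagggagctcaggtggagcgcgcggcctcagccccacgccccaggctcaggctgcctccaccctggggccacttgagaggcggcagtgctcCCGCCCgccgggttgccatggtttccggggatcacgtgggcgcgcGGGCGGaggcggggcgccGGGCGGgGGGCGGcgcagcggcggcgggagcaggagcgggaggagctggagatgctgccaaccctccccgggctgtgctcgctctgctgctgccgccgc
Prkar1a: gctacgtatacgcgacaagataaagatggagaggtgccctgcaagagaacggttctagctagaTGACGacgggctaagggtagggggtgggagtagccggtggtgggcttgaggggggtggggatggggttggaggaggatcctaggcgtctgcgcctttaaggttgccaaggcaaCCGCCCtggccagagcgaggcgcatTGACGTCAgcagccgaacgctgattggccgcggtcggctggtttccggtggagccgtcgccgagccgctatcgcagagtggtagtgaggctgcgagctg

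At the promoter nearest the start of each gene, none of the 7 members holds the full CRE, 4 hold the core and 6 hold a GC box. Over all 32544 promoters in the table, 1.8% hold the full CRE, 20.9% the core and 35.9% a GC box. The Adcy3 and Prkar2b promoters hold no core, and Prkar2b has 4 GC boxes. The Prkacb promoter has one core, 102 bases before the start, and 3 GC boxes. The Prkar1a promoter shown has the full CRE beginning 49 bases before its start, and a second, overlapping entry of Prkar1a contains the same element. The windows shown hold 33 CpG for Adcy3, 41 for Prkacb, 32 for Prkar2b and 25 for Prkar1a against a median of 7 over the table. The Prkar1a window was picked for its CRE, and the Prkar1a entry nearest the start of the gene holds 7. The Prkar1a transcript was not called with NE in either line, and a match to these letters describes the sequence only.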

How the data were processed

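RNA-seq of 12 libraries was used, 3 in each of 4 groups assigned from the labels. The authors made the libraries with SMART-Seq2 and Nextera XT, which keep no strand, aligned reads with STAR 2.7.9a to mm10 (GRCm38.p4, per the submitters' processing notes), counted them per gene with HTSeq and scaled every library with a DESeq2 size factor. The deposited signal is therefore a normalized count; the annotation and counting mode are not given in the sources used here. Every value above 0 came to a whole number of reads within 0.01, so reads were recovered for depth and for count tests. No column of values was left unused.

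Genes with at least 10 normalized counts in 3 libraries (11998 of 48321) entered one limma 3.58.1 model (R 4.3.3, trend) of the 4 groups on log2(value + 1), with Benjamini-Hochberg adjustment over all tested genes and two-sided tests. Calls needed an adjusted p no higher than 0.05; the study also asked for a 2-fold change, which was tried as an alternative. Fold changes on this scale understate those of low genes. Ratios were tested by exact permutation over libraries. Levels per kb, positions and shared exons came from GENCODE vM21 (GRCm38), in which 9 of 9 members matched. Alternatives were other pseudocounts, filters, scalings, edgeR 4.0.16 and DESeq2 1.42.0 on recovered reads, smaller models, a block, and leaving out each library. The fit was tested on simulated data. Members, partner lists and markers were chosen with earlier results of these data known. Named genes were the 9 members, the 3 genes most like each, all listed receptors, Gs, cyclases and PKA subunits, up to 3 called genes per other pathway list with the largest change (further called genes are named without rank), and defining cell type markers; one listed item is not reported here. Gene sequences are from RefSeq. Counting error alone limits values of a few reads.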

Additional observations from a re-analysis of the deposited data

How the results depend on the processing

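The counts of called transcripts were recomputed under 19 alternatives for each two-group comparison and 24 for the interaction. Without stimulation, 2 were called higher in tSema4B cells as reported, 1 with a pseudocount of 0.5, with no filter, with scaling over nuclear genes, with edgeR and with a model of the 6 libraries compared, and 0 with a 2-fold threshold; leaving out single libraries gave 0 to 2. Lower calls there were 1 as reported, 2 with a filter at 50 normalized counts, with scaling over nuclear genes and with libraries thinned to the shallowest (an alternative added after seeing the data), and 1 to 2 on leaving out single libraries. After NE, the 2 higher calls became 0 and the 2 lower calls became 1 with a 2-fold threshold, and stayed at 2 and 2 on leaving out any library. The higher calls became 3, with Prkar1a, with totals made equal, with quantile normalization and with thinned libraries. For NE in pLEX cells, 1 was called lower (Adrb3) in the model of the 6 libraries and 0 otherwise. No alternative called any of the 8 for NE in tSema4B cells or for the interaction. Adrb3 was called lower between the lines under all 19 alternatives, from -3.64 to -2.55 on the log2 scale without NE and from -3.25 to -2.26 after it. None of the 11 fold changes given for a member between lines or with NE changed sign; the interaction of Prkacb was not followed on its own. Of the 29 pairs of member and comparison with no call and an unadjusted p of 0.1 or more, 16 changed sign under some alternative and 0 were ever called. Of 45 calls in the other pathway genes, 26 held throughout, 19 were lost under some alternative and 0 reversed.

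Libraries with the same number did not deviate together (18 pairs, r from -0.047 to 0.0282), so the numbers do not pair them. With the replicate number as a block, 1 transcript was called higher without stimulation, Prkacb being lost (adjusted p = 0.0684), and no other call of a member changed.

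At 2000780 reads in the shallowest library, Adrb1 could not be compared, and Adrb3 in tSema4B cells rests on 6 to 21 reads.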
